A study of Mus musculus with 49 samples.

Results

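The genes described here are 42 genes of the amino-acid stress response, most of them known targets of the transcription factor ATF4, taken by symbol from the 24213 gene names in 5 RNA sequencing tables of mouse cells. They were listed by known function, with no threshold on a measured value but with earlier results of these data known. All cells were of the C57BL/6 strain and were wild type (WT), Elf4 knockout (KO) or Elf4 W250S, a substitution of a single amino acid in the ETS-family transcription factor ELF4, which the series title ties to inflammation. Bone marrow-derived macrophages (BMDM, 7 days in M-CSF) of WT and Elf4 KO genotype were left untreated (0 h) or given lipopolysaccharide (LPS, a bacterial cell wall product, 100 ng/ml) for 4 or 16 h, with 3 libraries in each of 6 groups. Naive CD4 T cells, untreated, formed a set of 4 libraries labelled KO with 3 WT and a separate set of 3 W250S with 3 WT libraries. WT and W250S T cells were differentiated for 48 h to pathogenic Th17 cells, with IL-6, IL-23 and IL-1b, or to non-pathogenic Th17 cells, with IL-6 and TGF-beta, with 3 libraries of each genotype and culture. The labels give no age of the mice and do not say how the Elf4 alleles were made, or whether libraries of a group came from separate animals, so p-values measure the spread between these libraries.

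When amino acids run short, uncharged transfer RNA activates the kinase GCN2, which phosphorylates the initiation factor eIF2, and the kinase PERK does the same when unfolded proteins collect in the endoplasmic reticulum (ER). Phosphorylated eIF2 lowers protein synthesis as a whole but lets the Atf4 messenger be translated more, so ATF4 protein can change without its mRNA. ATF4 then binds, often as a dimer with a C/EBP protein, and raises genes that make, import and load amino acids. The 42 genes are given here in 6 roles: regulators (Atf4, Atf5, Ddit3, Trib3, Nupr1, Cebpg), stress effectors (Ddit4, Chac1, Sesn2, Vldlr, Eif4ebp1, Stc2), enzymes of serine and folate metabolism (Psat1, Phgdh, Psph, Shmt2, Mthfd2), other amino acid enzymes (Asns, Aldh18a1, Pycr1, Gpt2, Pck2), amino acid transporters (Slc7a11, Slc7a5, Slc7a1, Slc3a2, Slc38a2, Slc1a4, Slc1a5, Slc6a9), and genes of transfer RNA (the aminoacyl-tRNA synthetases Sars, Wars, Nars, Gars, Aars, Cars, Mars, Iars, Yars, Lars and Eprs, and the tRNA exporter Xpot).

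Promoters of genes that the results below turn on are shown first because they carry, in capitals, the 8-letter motif TGATGNAA, the form in which the C/EBP-ATF response element is usually written. The motif was searched on both strands in RefSeq windows of 300 bases, 250 before and 50 after each annotated start (build GRCm38.p6). The bases before the start are printed here 5′ to 3′ on the strand of the gene, so that a motif on the opposite strand reads as its reverse complement, as TTACATCA in Pck2 and TTGCATCA in Chac1. Pck2 lies on the plus strand at chr14:55540016-55540265, Asns on the minus strand at chr6:7693210-7693459, Chac1 on the plus strand at chr2:119350992-119351241, Pycr1 on the minus strand at chr11:120643749-120643998 and Slc7a11 on the minus strand at chr3:50443614-50443863.
Pck2: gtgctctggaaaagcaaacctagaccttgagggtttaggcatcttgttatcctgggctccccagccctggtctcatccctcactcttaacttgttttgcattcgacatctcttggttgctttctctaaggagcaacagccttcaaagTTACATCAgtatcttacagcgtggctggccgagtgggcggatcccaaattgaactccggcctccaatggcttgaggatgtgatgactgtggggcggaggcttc
Asns: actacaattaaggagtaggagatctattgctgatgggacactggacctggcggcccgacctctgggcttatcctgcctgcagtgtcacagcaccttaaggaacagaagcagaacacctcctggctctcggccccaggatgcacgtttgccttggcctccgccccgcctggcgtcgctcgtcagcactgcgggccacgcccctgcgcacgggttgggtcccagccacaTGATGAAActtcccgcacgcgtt
Chac1: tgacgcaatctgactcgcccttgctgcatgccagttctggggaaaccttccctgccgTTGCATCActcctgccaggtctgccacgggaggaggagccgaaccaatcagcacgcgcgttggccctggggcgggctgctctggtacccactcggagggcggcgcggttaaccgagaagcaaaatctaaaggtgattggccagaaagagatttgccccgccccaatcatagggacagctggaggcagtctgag
Pycr1: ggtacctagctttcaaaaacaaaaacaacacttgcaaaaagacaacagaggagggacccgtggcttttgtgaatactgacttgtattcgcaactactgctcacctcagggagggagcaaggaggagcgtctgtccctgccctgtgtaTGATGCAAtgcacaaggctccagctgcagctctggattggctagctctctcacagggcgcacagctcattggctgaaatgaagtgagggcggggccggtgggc
Slc7a11: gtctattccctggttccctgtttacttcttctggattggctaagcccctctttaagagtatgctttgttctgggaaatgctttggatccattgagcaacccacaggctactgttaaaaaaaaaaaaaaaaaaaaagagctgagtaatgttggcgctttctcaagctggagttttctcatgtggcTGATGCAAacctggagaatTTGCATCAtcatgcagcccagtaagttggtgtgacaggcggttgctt
Of these promoters only that of Slc7a11, the cystine importer, holds the motif more than once in the bases shown. For 35 of the 42 genes 41 windows were found, some genes having more than 1. TGATGNAA was held by 13 of the 41 windows, of 13 genes, against 3.97% of all 32851 windows. The motif with C at its free base, TGATGCAA, was found in 9 of the 41 windows, of 9 genes, and in 0.895% of all windows. Among genes that fell in non-pathogenic Th17 cells (below), 8 of the 19 with a window held TGATGNAA, namely Trib3, Asns, Pycr1, Chac1, Slc1a4, Pck2, Gars and Aars. Among the other genes 5 of 16 did, namely Vldlr, Slc7a11, Nupr1, Iars and Yars. The ETS motif CCGGAAGT, searched in the same way, was found in 3.89% of all windows and among the 42 genes for Ddit3 and for Mars, whose window is filed as Mars1. A match is a description of letters and shows no binding.

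RNA levels are given as CPM, the authors' read counts scaled to library depth. Differences are in log2(CPM + 1), tested with limma over every gene of a table that reached 1 CPM in 3 or more libraries, and a gene is said to rise or fall where its Benjamini-Hochberg adjusted p is below 0.05. A row and enough signal for the test were found for 40 of the 42 genes in BMDM, 33 in each naive set, 41 in pathogenic and 40 in non-pathogenic Th17 cells. Mars is named Mars1 in the BMDM table and is not among the 40. Defining markers fitted the labels: 8 macrophage markers summed to 14142 to 30813 CPM in BMDM, and 7 CD4 T cell markers to 1133 to 1898 CPM in the T cells. Elf4 itself averaged 22 CPM in KO and 105 CPM in WT BMDM at 0 h, 17.2 and 68.7 CPM at 4 h, and 29.5 and 132 CPM at 16 h. In the naive set labelled KO those libraries held 189 CPM of Elf4 against 191 CPM in WT, so they are called KO-labelled here and no direction drawn from them is given as one of Elf4 loss. W250S is a substitution, and the Elf4 mRNA level is no check of it.

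In non-pathogenic Th17 cells, 22 of the 40 genes tested were lower in W250S than in WT and none was higher. Over all genes measured in that culture 2.94% fell and 4.12% rose. The 22 fell by 0.19 to 1.52 on the log2 scale, with a median difference of -0.41, and in each of them every W250S library lay under every WT library. Over all 40 genes the median difference was -0.31 and 33 were below 0, while the median of all genes tested was 0.036. Groups that did not overlap, W250S lower, were found in 29 of the 40 genes and in 12.6% of all genes. Fewer cells of a kind and less RNA per cell cannot be told apart in such bulk libraries.

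**Figure D1:**
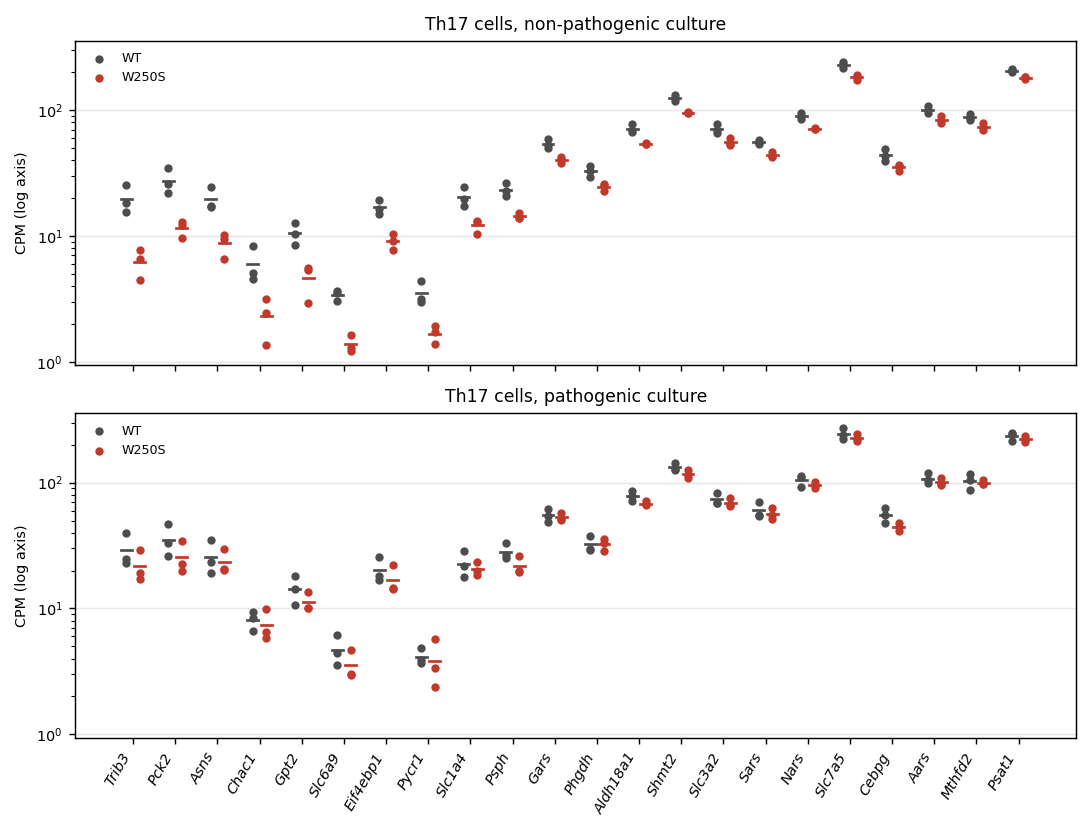
CPM on a log axis of the 22 genes that were lower in W250S in non-pathogenic Th17 cells, in that culture (top) and in the pathogenic culture (bottom), ordered by the size of the difference in the top panel. Dots are libraries (3 of each genotype) and bars are group means. WT and W250S libraries are apart for all 22 genes at the top, and overlap for most genes at the bottom.

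Of the regulators, Trib3, a pseudokinase that ATF4 induces and that feeds back on it, changed most of all 42 genes. It stood at 18.2, 15.6 and 25.5 CPM in WT replicates 1 to 3 and at 6.56, 4.47 and 7.69 CPM in W250S. Its highest W250S library was below its lowest WT library, and it fell by 1.52 on the log2 scale (SE 0.18, limma adjusted p = 0.00194). Cebpg, a C/EBP partner of ATF4, stood at 39.4, 43.1 and 49 CPM in WT and 36.7, 32.9 and 35.7 CPM in W250S. It fell by 0.31 (adjusted p = 0.0437), with groups that did not overlap by a small gap. Atf4 mRNA read 281, 277 and 302 CPM in WT and 272, 251 and 251 CPM in W250S. These groups did not overlap, but the difference of -0.15 did not pass the test (adjusted p = 0.106). Ddit3, the transcription factor CHOP, differed by -0.35 (adjusted p = 0.0614), and Atf5 by 0.021 (adjusted p = 0.923). Ddit3 overlaps the far end of Mars1 on chromosome 10, and whether reads were counted by strand is not given in the sources used here, so Ddit3 and Mars values are uncertain. Nupr1, a stress-induced chromatin protein, was below the level for testing, at 0.489 to 0.551 CPM in WT and 0.233 to 0.377 CPM in W250S.

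All 5 of the amino acid enzymes fell, with a median difference of -1.06. Pck2, the mitochondrial PEP carboxykinase, read 25.8, 22.1 and 34.8 CPM in WT and 12.2, 9.7 and 12.9 CPM in W250S. The W250S libraries were about level with each other and all below WT, a fall of 1.16 (SE 0.14, adjusted p = 0.00261). Asns, asparagine synthetase, read 17.1, 17.4 and 24.4 CPM in WT and 10.2, 6.52 and 9.53 CPM in W250S. It fell by 1.09 (SE 0.16, adjusted p = 0.00479), again with every W250S library below WT. Gpt2, a mitochondrial alanine aminotransferase, fell by 1.06 (adjusted p = 0.0109), from a mean of 10.6 CPM to 4.62 CPM. Pycr1 and Aldh18a1, which make proline, fell by 0.75 (adjusted p = 0.0136) and by 0.39 (adjusted p = 0.009). Aldh18a1 was at 69.5, 67.3 and 77.5 CPM in WT and at 53.9, 53.6 and 54.6 CPM in W250S, where its libraries were close together.

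All 5 genes of serine and folate metabolism fell as well, with a median difference of -0.38. Psph, the last enzyme of serine synthesis, fell by 0.67 (adjusted p = 0.00401), from 23.4 ± 2.95 CPM to 14.3 ± 0.812 CPM (SD, n = 3 libraries). Phgdh and Psat1, which act before it in that pathway, fell by 0.40 and by 0.19 (adjusted p = 0.0211 and 0.0397). Shmt2, which passes the carbon of serine to folate in mitochondria, read 124, 119 and 131 CPM in WT and 94.8, 95.1 and 96.3 CPM in W250S. It fell by 0.38 (adjusted p = 0.0049) with a wide gap between the groups. Mthfd2, the next mitochondrial folate enzyme, fell by 0.25 (adjusted p = 0.0456).

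Among the stress effectors, 2 of 5 fell. Chac1, which breaks down glutathione, read 5.04, 4.56 and 8.36 CPM in WT and 3.14, 1.35 and 2.46 CPM in W250S. It is a low gene, and it fell by 1.07 (SE 0.21, adjusted p = 0.0197). Eif4ebp1, a repressor of cap-dependent translation, read 16.4, 15 and 19.4 CPM in WT and 9.17, 7.67 and 10.4 CPM in W250S, and fell by 0.83 (adjusted p = 0.00401). Ddit4 and Sesn2, inhibitors of the growth kinase mTORC1, differed by 0.01 and 0.054 and did not pass (adjusted p = 0.945 and 0.638). Ddit4 was at 61.9, 72.4 and 68.5 CPM in WT and at 70.7, 62.6 and 71 CPM in W250S, fully overlapping. Stc2, a secreted glycoprotein, differed by -0.19 and did not pass (adjusted p = 0.338). Vldlr, a lipoprotein receptor, was too low to test, at 0.518 to 1.08 CPM in WT and 0.179 to 0.657 CPM in W250S.

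Of the transporters, 4 of 8 fell. Slc6a9, a glycine transporter, went from 3.03, 3.5 and 3.65 CPM in WT to 1.29, 1.23 and 1.64 CPM in W250S, a fall of 0.88 (SE 0.11, adjusted p = 0.00312). Slc1a4, a carrier of small neutral amino acids, fell by 0.70 (adjusted p = 0.0121). Slc7a5 and Slc3a2, the light and heavy chains of the LAT1 carrier of large neutral amino acids, fell by 0.32 and by 0.35 (adjusted p = 0.0141 and 0.0237). Slc3a2 read 69.1, 65.5 and 77.8 CPM in WT and 54.2, 52.4 and 59.7 CPM in W250S, so the groups were apart. Slc7a1, the arginine carrier and the most abundant member at 297 ± 15.1 CPM in WT, was at 285 ± 11.3 CPM in W250S (SD, n = 3 libraries), and the difference of -0.062 did not pass (limma adjusted p = 0.493). Slc1a5, the glutamine carrier, read 172, 176 and 181 CPM in WT and 167, 165 and 162 CPM in W250S. Its groups did not overlap, but its difference of -0.10 did not pass (adjusted p = 0.221). Slc7a11 was at a mean of 6.63 CPM in both genotypes, and Slc38a2, a system A carrier, differed by 0.11 without passing.

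Of the 12 transfer RNA genes 4 fell: Gars by 0.41, Nars and Sars each by 0.33, and Aars by 0.26 (adjusted p = 0.0136, 0.0144, 0.0172 and 0.036), the synthetases for glycine, asparagine, serine and alanine. Cars, Lars, Yars, Mars, Iars and Eprs were below 0 without passing, from -0.31 for Cars to -0.082 for Eprs. Wars and the exporter Xpot differed by 0.08 and 0.0043. In 11 lists of neighbouring genes, chosen by function, fewer genes fell, a contrast that was not tested. None of 9 other cytosolic and 16 mitochondrial aminoacyl-tRNA synthetases fell, none of 8 genes of the eIF2 kinases and phosphatase, none of 12 of the mTORC1 machinery and none of 19 cell cycle genes. None of 8 other folate and one-carbon enzymes fell, and none of 7 mitochondrial chaperones and stress genes. Of 10 other amino acid transporters 1 fell, Slc38a10 by 0.27 (adjusted p = 0.0235), and of 9 targets of the oxidative stress factor NRF2 2 fell, Hmox1 by 0.60 and G6pdx by 0.26 (adjusted p = 0.00726 and 0.0286). Of 16 ER chaperones and regulators of the unfolded protein response 2 fell, Xbp1 by 0.37 and Pdia4 by 0.24. Of 14 genes of ribosome biogenesis 4 rose, among them Wdr12 by 0.34 and Gnl3 by 0.31.

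Single libraries weighed on this count. WT replicate 3 was the highest WT library in all 22 of the genes, and in 37.9% of all genes tested, and W250S replicate 2 was the lowest of its group in 18 of the 22, and in 28.6% of all genes. Without WT replicate 3 the count of genes that fell was 7, without W250S replicate 1 it was 10, and without W250S replicate 2 it was 7. Without any 1 of the other 3 libraries it was 18 to 24. The shares of all genes in these smaller fits are not given, so whether the members lost more calls than other genes is not shown. Trib3, Pck2, Asns, Slc6a9, Eif4ebp1 and Psph passed whichever library was left out. Beside this, 3 of 7 Th17 markers were higher in W250S, Il17f by 1.40, Il17a by 1.22 and Ccr6 by 0.79, and so was the stromal marker Lum, from 4.49 to 9.07 CPM. The summed stromal markers with a row, 4 of 9, were at 3.99 to 5.95 CPM in WT and 8.56 to 10.5 CPM in W250S, with Col1a2, Col3a1, Sparc, Dcn and Bgn without a row. The part of these cells in the result was not tested.

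In pathogenic Th17 cells none of the 41 genes tested passed (smallest limma adjusted p = 0.117, and 6 with an unadjusted p below 0.05), where 0.891% of all genes rose and 1.16% fell. The median difference was -0.10, and 31 of the 41 were below 0. Of the 22 genes above, 21 were below 0 here, from -0.44 for Pck2, with Phgdh at 0.01 the exception, and their median was -0.13. Trib3 was at 40, 22.8 and 24.9 CPM in WT and at 17.3, 29 and 19.2 CPM in W250S, so the groups overlapped. Pck2 was at 46.6, 26.2 and 33 CPM in WT and at 20, 34.2 and 22.7 CPM in W250S, and Asns at 34.9, 19 and 23.5 CPM and at 20.3, 29.7 and 20.6 CPM. In these 3 genes WT replicate 1 and W250S replicate 2 were the highest of their groups, as they were in all 22, against 34.4% and 35.9% of all genes. The summed stromal markers with a row were also apart in this culture, at 19.9 to 29.1 CPM in WT and 39.2 to 47.7 CPM in W250S, nearly all of it Lum, and their part was not tested here either.

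Groups that did not overlap, W250S lower, were found here in 3 of 41 genes and in 11.4% of all genes. Shmt2 was at 144, 126 and 129 CPM in WT and at 109, 126 and 115 CPM in W250S, and Aldh18a1 at 86.4, 71.4 and 78.4 CPM and at 66.1, 71.3 and 67.3 CPM, so that for both the nearest libraries all but touched. Slc38a2, which had not been lower in the other culture, averaged 112 CPM in WT and 96.9 CPM in W250S. Their differences of -0.19, -0.20 and -0.20 did not pass (adjusted p = 0.175, 0.168 and 0.188). Without WT replicate 2 Cebpg fell, and without W250S replicate 2 Psph fell, each the only 1 of the 41 genes to do so. Cebpg was at 62.8, 47.9 and 55.5 CPM in WT and at 40.9, 48.2 and 44.4 CPM in W250S, and its difference of -0.30 was about the same as in non-pathogenic cells (adjusted p = 0.117). Of the remaining members that recur in other comparisons, Eif4ebp1 was at 25.5, 18.2 and 16.8 CPM in WT and at 14.6, 22.1 and 14.2 CPM in W250S. Slc3a2 was at 82.6, 69.5 and 68.5 CPM and at 65.5, 75.6 and 66.2 CPM, Slc1a5 at 182, 168 and 163 CPM and at 162, 166 and 164 CPM, and Ddit4 at 66, 67.9 and 64.9 CPM and at 67.1, 71.6 and 64 CPM. Each of these 4 overlapped between the genotypes.

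**Figure D2:**
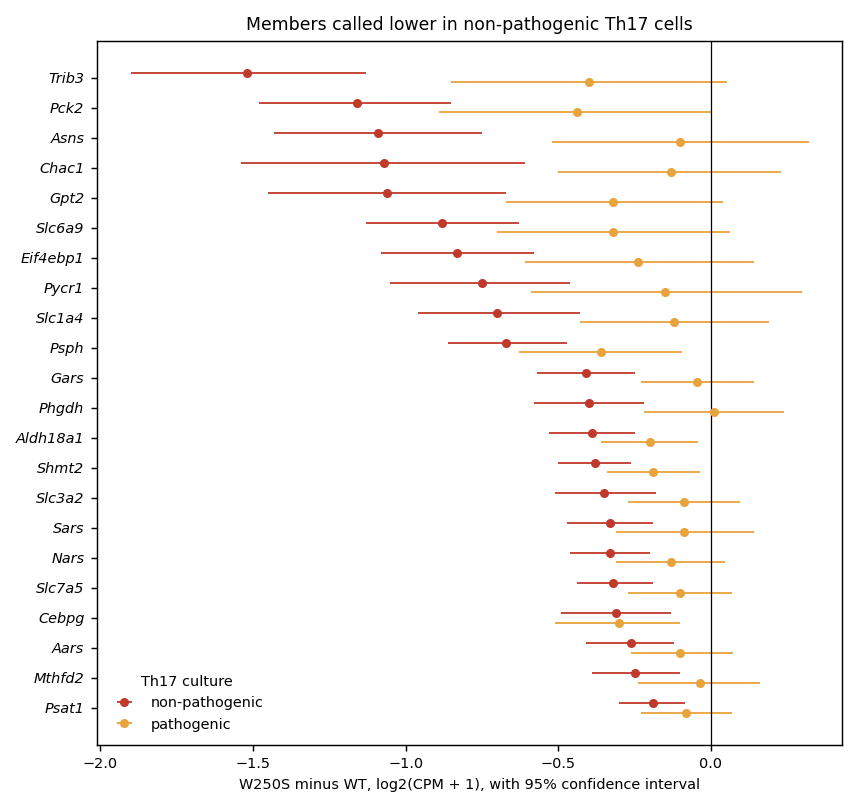
Difference W250S minus WT in log2(CPM + 1), with 95% confidence intervals from limma, for the 22 genes that fell in non-pathogenic Th17 cells, in both cultures. Points of the non-pathogenic culture run from -1.52 to -0.19, and those of the pathogenic culture from -0.44 to 0.01.

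A passed test in one culture and none in the other does not show that the cultures differ, so the difference itself was tested. The effect of W250S in pathogenic minus that in non-pathogenic cells was above 0 for all 22 genes, a sign that their choice in the non-pathogenic libraries makes likely. It was 1.12 for Trib3 (95% interval 0.45 to 1.79), 0.98 for Asns (0.36 to 1.61), 0.94 for Chac1 (0.28 to 1.60), 0.74 for Gpt2 (0.19 to 1.30) and 0.72 for Pck2 (0.15 to 1.28), and its interval lay above 0 for 12 of the 22. The same choice enlarges these sizes and the count of 12, so they are no test of the cultures. After adjustment over all 13074 genes none of the 41 members passed (smallest limma adjusted p = 0.558), and none of all genes did. A difference between the cultures was not shown. The unadjusted p was below 0.05 for 16 of the 41, and the share of all genes at that level is not given here.

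In naive CD4 T cells carrying W250S none of the 33 genes tested passed (smallest adjusted p = 0.196, and 3 with an unadjusted p below 0.05), where 3.31% of all genes rose and 0.855% fell. Of the 22 genes that fell in non-pathogenic Th17 cells 16 could be tested here, and 3 of them were below 0, with differences from -0.20 to 0.29. W250S replicate 1 was the highest of its group in 29 of the 33 genes, and in 38.2% of all genes. Without WT replicate 3 Slc1a5 fell, the only gene of the 33 to do so. Trib3 was at 2.96, 2.76 and 2.79 CPM in WT and at 4.54, 3.37 and 3.27 CPM in W250S, higher in every W250S library. Asns, Pycr1, Slc6a9, Eif4ebp1, Gpt2 and Stc2 were too low to test in naive cells, and Chac1, Vldlr and Nupr1 had no row. Slc1a5 was at 53.9, 49.8 and 39.1 CPM in WT and at 41.9, 38.4 and 33.9 CPM in W250S, overlapping. Overlap was also seen for Aldh18a1, at 21.9, 22.1 and 25 CPM and at 26.3, 17.7 and 16.8 CPM, and for Cebpg, at 31.3, 28.1 and 33.7 CPM and at 30.5, 24.2 and 39 CPM. Shmt2, Slc3a2 and Ddit4 averaged 16.8, 25.7 and 47.2 CPM in WT and 19.4, 27.3 and 55.3 CPM in W250S.

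In the KO-labelled naive cells 2 of 33 genes fell and none rose, where 3.64% of all genes fell and 4.39% rose. Slc1a5 was at 84.8, 95.5 and 90.5 CPM in WT and at 66.4, 65.4, 68.1 and 58 CPM in KO-labelled libraries. All 4 of these were below all WT libraries, and the gene fell by 0.48 (SE 0.073, adjusted p = 0.00244). Aldh18a1 was at 19.6, 20 and 18.3 CPM in WT and at 12.6, 13.8, 11.7 and 17.4 CPM in KO-labelled libraries, without overlap, and fell by 0.46 (adjusted p = 0.028). KO-labelled replicate 4 was the highest of its group in 25 of the 33 genes, and in 32.3% of all genes tested, and without it 7 genes fell. Without any 1 of the other 6 libraries 1 gene fell, Slc1a5. The other recurring members overlapped, with means in WT and KO-labelled libraries of 20.2 and 18.1 CPM for Shmt2, 32.4 and 29.3 CPM for Cebpg, 72.1 and 59.5 CPM for Ddit4, 27.9 and 26 CPM for Slc3a2, and 3.16 and 2.92 CPM for Trib3. Open chromatin in naive cells (ATAC-seq, 3 KO-labelled and 3 WT libraries) was tested in 33 peaks that the authors place at the start sites of 31 of the genes. None passed edgeR's quasi-likelihood test (smallest adjusted p = 0.157, and 5 with an unadjusted p below 0.05), where 0.0182% of all 16439 start-site peaks rose and 0.00608% fell. The median difference was -0.046, against -0.0038 for all such peaks. The Slc1a5 peak (chr7:16780887-16782857, mm10) was at 68.9, 68.8 and 71.6 CPM in KO-labelled libraries and at 75.7, 76.5 and 81.8 CPM in WT, lower in all, with a log2 difference of -0.18 (adjusted p = 0.42). The Aldh18a1 peak (chr19:40588016-40589737) was at 88.7, 89.5 and 89.2 CPM in KO-labelled libraries and at 87.2, 109 and 112 CPM in WT, overlapping. Its difference of -0.23 did not pass (edgeR adjusted p = 0.401). The Slc6a9 peak (chr4:117835289-117836844) was at 59.6, 64.8 and 66.6 in KO-labelled and at 48.6, 46 and 45.2 CPM in WT, a difference of 0.43 that passed with DESeq2 (adjusted p = 0.0489) but not with edgeR (adjusted p = 0.157). Without WT replicate 1 of the ATAC-seq libraries 1 start-site peak rose and 1 fell.

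**Figure D3:**
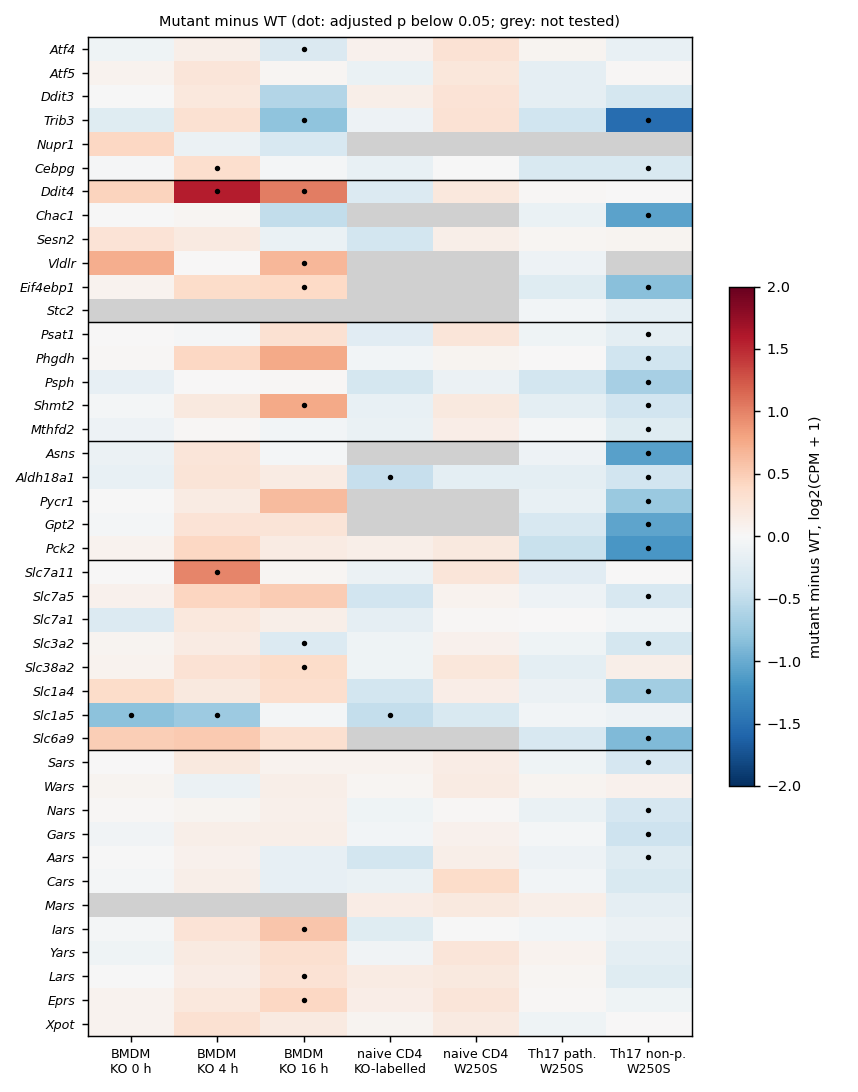
Difference mutant minus WT in log2(CPM + 1) of the 42 genes (rows, in 6 roles divided by lines) in 7 comparisons (columns). A dot marks an adjusted p below 0.05 and grey a gene not tested. The non-pathogenic Th17 column holds 22 dots, all of them falls, and the BMDM column at 16 h holds 8 rises and 3 falls.

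In BMDM the response of the genes to LPS is given first. CPM fell for most genes after LPS (the median gene by 0.81 at 4 h and by 0.41 at 16 h in WT), so a call is given here only where it holds both in CPM and after median-ratio scaling, which centres the genes. By 4 h in WT 13 genes rose and 6 fell both ways, where 15.6% of all genes rose and 71.3% fell in CPM, and 35.5% rose and 37.2% fell after scaling. By 16 h 14 rose and 11 fell both ways, where 18.3% of all genes rose and 56.5% fell in CPM, and 33.6% and 33.7% after scaling. The KO cells gave 14 rises and 6 falls at 4 h (all genes 15.6% and 70.8% in CPM, 35% and 37.1% after scaling) and 12 rises and 8 falls at 16 h (17.8% and 50.1%, 31.4% and 29.3%). Each share is of 1 scaling alone, and the share of all genes called both ways is not given, so these counts do not place the members against all genes. The comparisons at 4 and 16 h share their untreated libraries.

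**Figure D4:**
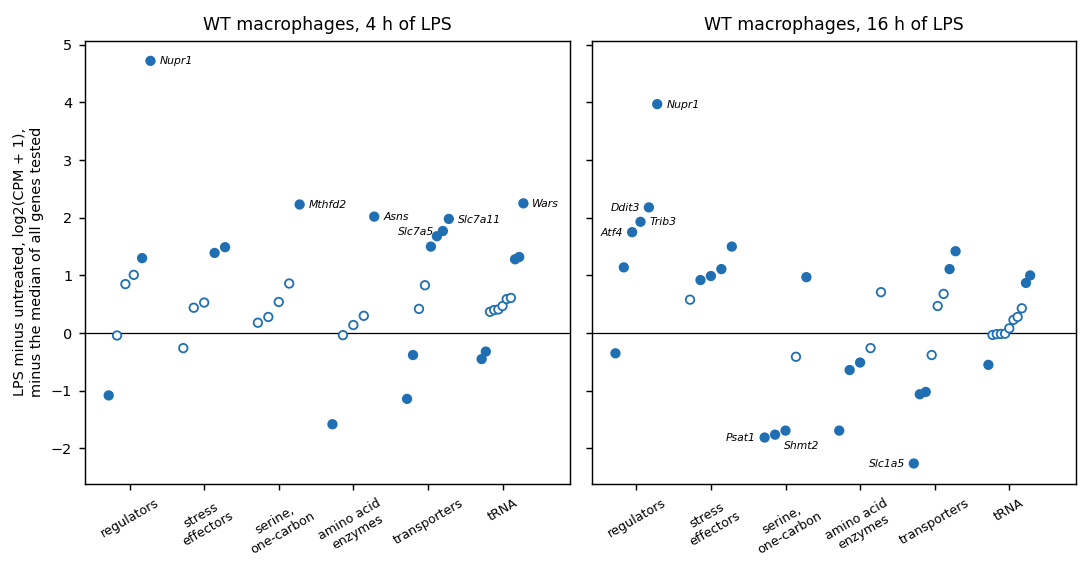
Difference after LPS in WT BMDM in log2(CPM + 1), less the median of all genes tested (0 on the y axis), for the genes of each role at 4 h (left) and 16 h (right). Filled dots passed in the same direction in CPM and after median-ratio scaling. At 16 h, 5 of 6 regulators lie above 0 as filled dots. Of the genes of serine and folate metabolism, Phgdh, Psat1 and Shmt2 lie below 0 as filled dots.

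At 16 h in WT 5 of 6 regulators rose. Nupr1 went from 10.5, 9.1 and 8.94 CPM to 141, 107 and 122 CPM (3.56 on the log2 scale, adjusted p = 1.49e-11). It had reached 168, 149 and 152 CPM by 4 h. Atf4 itself went from 101, 94.8 and 90.3 CPM to 243, 234 and 249 CPM (1.34, adjusted p = 2.57e-09). Ddit3 rose by 1.76 (adjusted p = 1.15e-06), from 21.2, 11.2 and 13.2 CPM to 55, 50.9 and 50.7 CPM. At 4 h it had read 7.54, 7.06 and 8.47 CPM, below every untreated library, a fall of 0.85 in CPM that did not pass after scaling. Trib3 rose by 1.52 (adjusted p = 2.56e-05), from 4.1, 3.67 and 3.34 CPM to 12.6, 13.1 and 11.7 CPM. Cebpg fell, by 1.89 at 4 h and by 0.76 at 16 h, from a mean of 88 CPM to 23 and 51.5 CPM.

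Among enzymes that make serine, Phgdh and Psat1 fell at 16 h. Phgdh fell by 2.10 (adjusted p = 2.46e-06), from 25.2, 24.5 and 29.4 CPM to 5.4, 5.21 and 5.52 CPM, and Psat1 by 2.23 (adjusted p = 4.22e-08), from a mean of 75.3 CPM to 15.3 CPM. Shmt2 fell by 2.17 (adjusted p = 2.19e-07), from 69.6, 73.7 and 67.5 CPM to 16.8, 13.3 and 14.6 CPM. At 4 h Phgdh and Psat1 had means of 21.7 and 78.2 CPM, near those of untreated cells, and did not pass. Mthfd2, in the same role as Shmt2, rose instead, by 1.42 at 4 h (adjusted p = 7.16e-07) and by 0.56 at 16 h (adjusted p = 0.0096). Asns rose at 4 h, from a mean of 30.9 CPM to 72.9 CPM (1.21, adjusted p = 9.92e-05), and stood at 38.2 CPM at 16 h. Pck2 fell by 2.39 at 4 h (adjusted p = 2.85e-10), from 58.7, 59.6 and 67.7 CPM to 9.01, 11.2 and 13 CPM, and stayed low at 16 h.

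The transporters were divided. Slc7a11 rose by 1.16 at 4 h (adjusted p = 1.11e-05) and by 1.01 at 16 h (adjusted p = 8.23e-05), and Slc7a5 rose by 0.96 at 4 h (adjusted p = 0.00774) and then fell by 1.47 at 16 h (adjusted p = 0.000342). Slc1a5 fell by 1.19 at 4 h and by 2.67 at 16 h (adjusted p = 1.26e-07 and 5.83e-12), the largest fall of the 40 genes at 16 h. Slc38a2 fell by 1.95 and by 1.43 at these times. Of the synthetases, Wars, which interferon is known to induce in human cells, rose by 1.44 at 4 h (adjusted p = 9.46e-11), from a mean of 59.1 CPM to 162 CPM, and was back at 59.8 CPM at 16 h. Aars and Cars rose at both times, by 0.46 to 0.59.

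Between Elf4 KO and WT BMDM a member that stood apart before LPS was Slc1a5. At 0 h it read 35.1, 35.5 and 34.4 CPM in WT and 22.9, 20 and 15.7 CPM in KO. Every KO library was below every WT library, and it fell by 0.82 (SE 0.13, limma adjusted p = 0.00769). It was the only one of 40 genes to pass, where 0.299% of all genes fell and 0.141% rose. Nupr1 and Vldlr were also apart at 0 h, higher in every KO library than in any WT library, and did not pass. At 4 h Slc1a5 read 13, 15.6 and 15.7 CPM in WT and 9.76, 8.55 and 7.3 CPM in KO, again apart, and was lower by 0.73 (adjusted p = 0.00511). At 16 h it had dropped to 5.11, 4.35 and 4.49 CPM in WT and 4.36, 4.64 and 4.47 CPM in KO, and the genotypes overlapped. The KO effect at 16 h differed from that at 0 h by 0.79 (95% interval 0.39 to 1.18, adjusted p = 0.0216), where 3.62% of all genes passed upward and 2.83% downward. It differed from that at 4 h by 0.69 (adjusted p = 0.0457, with 2.14% and 1.92% of all genes), and this call was lost with a pseudocount of 0.1 or no filter on low genes, where none of the members passed. In a fit that blocks on the replicate number within each genotype 5 further members passed for 16 h minus 0 h, Shmt2, Phgdh, Iars and Eprs upward and Nupr1 downward. Likewise 5 more passed for 16 h minus 4 h, all downward, namely Trib3, Slc7a11, Ddit3, Slc3a2 and Cebpg. The shares of all genes that passed in the blocked fit are not given here, so these counts do not set the members apart. At 0 h the Slc1a5 call was lost in a fit to the 6 libraries of that time alone, where 0 members passed.

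**Figure D5:**
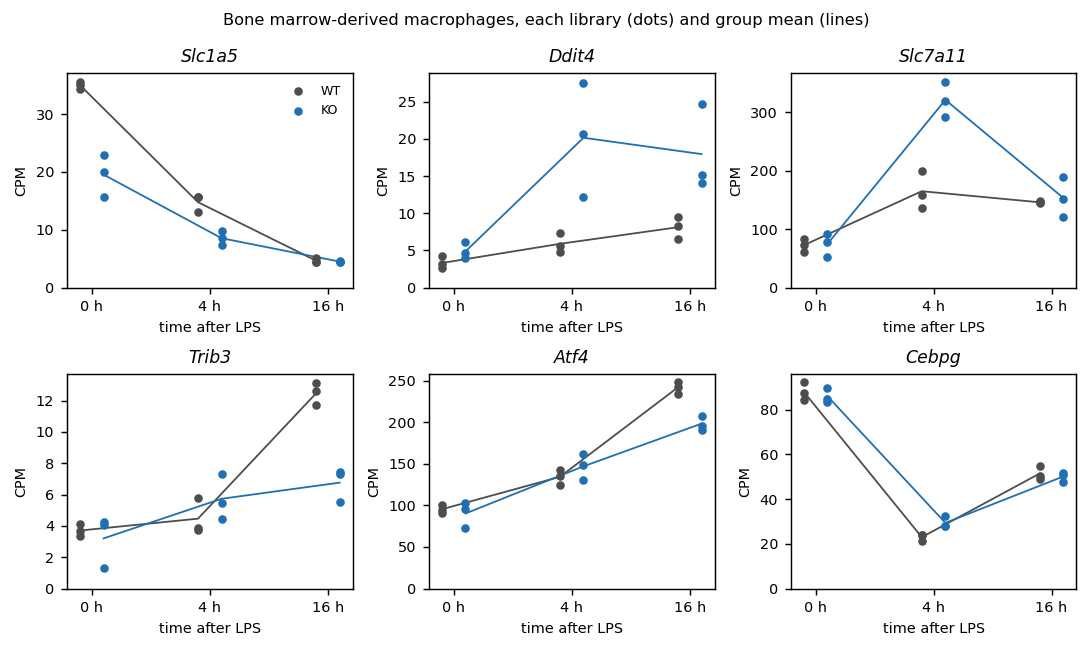
CPM (y axis, from 0) of 6 genes in BMDM by time after LPS (x axis, not to scale), with each library as a dot (3 for each genotype and time) and group means joined by lines. Slc1a5 is lower in KO at 0 and 4 h and level at 16 h, Ddit4 and Slc7a11 are higher in KO at 4 h, and Trib3 and Atf4 are lower in KO at 16 h.

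At 4 h 3 genes were higher in KO, where 2.38% of all genes rose and 1.81% fell. Ddit4, the mTORC1 inhibitor REDD1, read 4.77, 5.62 and 7.28 CPM in WT and 12.2, 20.7 and 27.6 CPM in KO. The KO libraries were all higher but differed among themselves by more than the WT libraries did, and Ddit4 rose by 1.57 (SE 0.26, adjusted p = 0.00294). Slc7a11 read 136, 200 and 159 CPM in WT and 292, 352 and 320 CPM in KO, and rose by 0.98 (SE 0.18, adjusted p = 0.00617). Before LPS both genes overlapped between genotypes, Ddit4 at 3.13, 2.6 and 4.2 CPM in WT and 3.93, 6.08 and 4.59 CPM in KO, and Slc7a11 at 61.4, 82.4 and 73.6 CPM and at 78.5, 92 and 53 CPM. The KO effect at 4 h minus that at 0 h was 1.12 for Ddit4 and 0.96 for Slc7a11 and did not pass (adjusted p = 0.367 and 0.237, with 0% of all genes up and 0.00829% down). Same-numbered libraries of a genotype deviated together across times (correlations from 0.06 to 0.53), and in the blocked fit the difference passed for Slc7a11 and not for Ddit4. Cebpg read 23.9, 23.8 and 21.2 CPM in WT and 27.8, 32.3 and 28 CPM in KO, and rose by 0.34 (adjusted p = 0.0178), a call that was lost after median-ratio scaling. At 0 h it had read 87.4, 92.3 and 84.3 CPM in WT and 83.6, 84.7 and 89.9 CPM in KO, and at 16 h 54.8, 50.4 and 49.2 CPM and 50.9, 47.7 and 51.8 CPM, overlapping both times.

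At 16 h 8 of 40 genes rose and 3 fell in KO, where 20.9% of all genes rose and 9.65% fell, so the members' shares were near those of all genes. After median-ratio scaling 5 rose and 5 fell, where 12.6% and 14.1% of all genes did. Ddit4 stayed higher, at 8.31, 6.53 and 9.53 CPM in WT and 15.1, 24.7 and 14.1 CPM in KO (1.03, adjusted p = 0.00694). Trib3 read 12.6, 13.1 and 11.7 CPM in WT and 7.42, 7.33 and 5.54 CPM in KO, all lower, and fell by 0.80 (SE 0.25, adjusted p = 0.0216). Before that it had overlapped, at 4.1, 3.67 and 3.34 CPM in WT and 4.26, 4.03 and 1.32 CPM in KO at 0 h, and at 3.73, 3.87 and 5.79 CPM in WT and 5.44, 7.31 and 4.45 CPM in KO at 4 h. Atf4 read 243, 234 and 249 CPM in WT and 196, 191 and 208 CPM in KO, and fell by 0.29 (adjusted p = 0.0455). Slc3a2 read 516, 509 and 525 CPM in WT and 443, 403 and 444 CPM in KO, and fell by 0.27 (adjusted p = 0.0441). In each of these 3 genes every KO library lay below every WT library. The falls of Atf4 and Slc3a2 were lost with no filter on low values and without any 1 of the 6 libraries of that time, and that of Trib3 without WT replicate 1, WT replicate 2 or KO replicate 3.

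Shmt2 read 16.8, 13.3 and 14.6 CPM in WT and 24.9, 33.3 and 20.4 CPM in KO at 16 h, and rose by 0.75 (adjusted p = 0.0239). Vldlr rose by 0.67, Iars by 0.55, Eprs by 0.41, Eif4ebp1 by 0.40, Slc38a2 by 0.37 and Lars by 0.29 (adjusted p = 0.0306, 0.0204, 0.0136, 0.0327, 0.00546 and 0.0329). The rises of Vldlr, Eif4ebp1 and Lars were lost after median-ratio scaling. Eif4ebp1 read 41.9, 44.8 and 47 CPM in WT and 50.9, 58.4 and 69.1 CPM in KO, without overlap. At the earlier times Shmt2, Eif4ebp1 and Aldh18a1 did not pass. Shmt2 averaged 70.3 CPM in WT and 70.2 CPM in KO at 0 h, and 44.9 and 54.5 CPM at 4 h. Eif4ebp1 averaged 31 and 33 CPM at 0 h, and 23.8 and 31.2 CPM at 4 h, and Aldh18a1 28.4 and 26.2 CPM, and 15.6 and 18.8 CPM. Slc3a2 averaged 320 CPM in WT and 335 CPM in KO at 0 h and did not pass there or at 4 h. Aldh18a1 averaged 17.5 CPM in WT and 20.2 CPM in KO at 16 h and did not pass there. Of the lists of neighbouring genes at 16 h, 14 of 16 ER chaperones and regulators of the unfolded protein response rose in KO (11 after median-ratio scaling). In CPM, 12 of 19 cell cycle genes, 9 of 14 of ribosome biogenesis and 5 of 9 other cytosolic aminoacyl-tRNA synthetases also rose. Over all genes 20.9% rose in CPM and 12.6% after that scaling. Examples from these lists are the ER chaperones Dnajc3 (0.83, adjusted p = 0.000167) and Pdia6 (0.82, adjusted p = 0.000249), the cyclin Ccna2 (1.38, adjusted p = 0.00101) and the synthetase Vars (0.89, adjusted p = 0.00312). Only the ER list has its count after scaling here. The remaining lists are left out, so these counts do not show that neighbouring genes rose as a whole. Mars1 differed by 0.40 and did not pass (adjusted p = 0.0843).

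Single libraries decided many calls at 16 h. Leaving out 1 library at a time gave 2 to 8 rises and 0 to 1 falls. The rises numbered 4 without WT replicate 1, and 2 without WT replicate 3 or without KO replicate 2. The falls numbered 0 without WT replicate 1, WT replicate 2 or KO replicate 3, and 1 without WT replicate 3, KO replicate 1 or KO replicate 2. KO replicate 3 was the lowest KO library in 33 of 40 genes at 0 h, 28 at 4 h and 23 at 16 h, against 48.1%, 44.4% and 40.5% of all genes. KO replicate 2 was the highest in 34 of 40 at 4 h and 28 at 16 h, against 54% and 41.8% of all genes. At 0 h KO replicate 1 was the highest, in 22 of 40 (28.5% of all genes). The 9 stromal markers were highest in replicate 2 and lowest in replicate 3 of KO at each time. At 16 h they summed to 576, 764 and 1054 CPM in WT and to 1510, 2993 and 952 CPM in KO. At 0 h they summed to 415, 527 and 741 CPM in WT and 992, 1823 and 589 CPM in KO, and at 4 h to 347, 442 and 607 CPM and 852, 1540 and 492 CPM, with none of the 9 at 0. In WT they were highest in replicate 3 at each time. WT replicate 3 was the lowest WT library in 20 of 40 genes at 0 h (28.1% of all genes) and the highest in 21 at 4 h (39.6%). Neutrophil and precursor markers, 6 of 7 with a row, summed to 3.29, 2.14 and 3.6 CPM in WT and 4.13, 14.3 and 6.2 CPM in KO at 0 h. At 4 h they summed to 1.13, 2.2 and 2.82 CPM and 2.16, 7.85 and 3.43 CPM, and at 16 h to 1.35, 1.45 and 1.93 CPM and 3.29, 6.66 and 3.4 CPM, highest in KO replicate 2 at each time. The part of both marker lists in the KO differences of the members was not tested.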

How the data were processed

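There were 43 RNA and 6 ATAC-seq (open chromatin) libraries. The 5 RNA tables hold CPM, read counts scaled to depth, computed by the authors, per the file headers. They sum to 950599 to 954161 per BMDM library and 472848 to 543838 per T cell library, so the scaling covered more than the rows listed. The smallest steps between low values put depth at 11.5 to 16.8 M reads in BMDM and at most 46.6 to 70.5 M in T cells. For ATAC-seq the authors deposited expected counts over 86911 common peaks, 6.19 to 13.7 M per library, which were rounded here. The submitters' processing notes name mm10, BWA, MACS2, Bowtie2, DESeq2 and Partek 10.0.21.0411 without saying which served which assay.

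Groups and replicates were read from the labels of each sample. RNA was tested on the log2(CPM + 1) scale (R 4.3.3, limma 3.58.1 with eBayes and a mean trend), two-sided, on genes with 1 CPM or more in 3 or more libraries, and p-values were Benjamini-Hochberg adjusted over all genes tested. The 18 BMDM libraries shared a fit, so their p-values pool the spread of all times, and each T cell table had its own. The culture difference was fitted to pathogenic minus non-pathogenic values by the source number in the labels. ATAC-seq counts were tested with edgeR 4.0.16 (TMM, filterByExpr, quasi-likelihood test), with DESeq2 1.42.0 as the alternative. Both procedures were also run on simulated data, and the outcome is not given here. Each gene was drawn independently at a fixed spread, so shifts shared by many genes of a library were not covered. Same-numbered libraries of WT and mutant did not deviate together throughout (correlations from -0.27 to 0.32), so the fits have no replicate block. BMDM libraries of 1 genotype and number did deviate together across times (0.06 to 0.53, not every pair over 0.1). The main fit leaves this pairing out, so differences between times are also given with the block. Promoter sequences are from RefSeq (GRCm38.p6).

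The members and gene lists were chosen with earlier results of these data known. The text gives, for each comparison, up to 6 called members each way by size and up to 4 abundant members without a call. It names some, not all, of the members whose groups do not overlap, and up to 4 called genes of other lists. Members called in at least 2 comparisons of mutant with WT are given in every library or as group means. The alternatives were a pseudocount of 0.1, no filter on low values, median-ratio scaling, leaving out each library, the replicate block and, in BMDM, each time fitted alone.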

Additional observations from a re-analysis of the deposited data

Results flagged for a closer look

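Slc1a4, a neutral amino acid carrier, had a library far from the others in the KO-labelled naive CD4 T cells: 3.3 CPM in replicate 4, against 0.782, 0.604 and 0.313 CPM in replicates 1 to 3. The WT libraries were at 2.4, 1.79 and 0.842 CPM. It was 1 of 33 genes looked at in this group, and chance sets such a library apart in about 1 of 20 groups. Replicate 4 was also the highest of its group in 25 of the 33 genes tested.

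The Elf4 KO effect on Slc1a5 in BMDM differed between times by limma's test of the difference: at 16 h minus 0 h it was 0.79 on the log2 scale (adjusted p = 0.0216), and at 16 h minus 4 h it was 0.69 (adjusted p = 0.0457). Slc1a5 was lower in KO in 3 of 3 libraries at 0 and 4 h, and at 16 h it averaged 4.65 CPM in WT and 4.49 CPM in KO. The difference from 0 h no longer passed without WT replicate 2 at 0 h, WT replicate 2 or 3 at 16 h, or KO replicate 2 at 16 h, and that from 4 h no longer passed without any 1 of 8 libraries.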

How the results depend on the processing

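No result changed direction while it was called. Of 126 member calls, in the comparisons of mutant with WT, in the differences between them, and in the LPS comparisons where both scalings called them, 38 were lost under at least 1 alternative, most by leaving out a library. Of the 40 calls between mutant and WT, 10 were lost under an alternative other than that. In non-pathogenic Th17 cells the genes that fell numbered 22 with pseudocount 0.1, 19 with no filter on low values, 27 after median-ratio scaling, 25 with the replicate block, and 7 to 24 with a library left out. The replicate block gave 9 falls in KO-labelled naive cells. Number 4 is held there by a KO-labelled library alone, so the block sets that library aside. In W250S naive cells the block gave 1 rise and 1 fall. In BMDM it gave 1 rise for the KO effect at 4 h minus 0 h, 5 rises and 1 fall at 16 h minus 0 h and 5 falls at 16 h minus 4 h. Shares of all genes under the block, with a library left out, or in non-pathogenic Th17 cells under any alternative are not given. The block moved no other count by over 1.5 times, and the culture difference gave 0 calls with and without pairing. At 0 h, fitted alone, 0 genes fell in KO. At 16 h median-ratio scaling gave 5 rises and 5 falls, and no filter 1 fall. For 16 h minus 4 h, pseudocount 0.1 and no filter gave 0 rises and median-ratio scaling 3 falls. After LPS that scaling gave 25 rises and 6 falls in WT at 4 h, where 35.5% of all genes rose and 37.2% fell. It gave 11 falls in WT at 16 h, where 33.7% of all genes fell. In KO at 4 h it gave 26 rises and 6 falls, where 35% of all genes rose and 37.1% fell. DESeq2 called 1 start-site peak up. Leaving out a library gave 2 to 8 rises and 0 to 1 falls at 16 h, 0 to 1 rises for the KO effect at 16 h minus 0 h and minus 4 h, 0 to 1 falls for the latter, 10 to 18 falls after 16 h of LPS in KO, 1 to 7 falls in KO-labelled naive cells, 0 to 1 falls in W250S naive and in pathogenic Th17 cells, 0 to 1 falls for the culture difference, and 0 to 1 start-site peaks each way. Such fits test fewer samples, and the other causes were not tested. The count test on reads recovered from CPM was not run, because not all low values were whole multiples of the smallest step. The share that was ran from 95.2 to 96.8% in BMDM and from 91.1 to 93.7% in T cell libraries. Depth limits genes near 1 CPM, such as Vldlr, Nupr1 and Stc2.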
